A study of Homo sapiens with 15 samples.

Results

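The comparison described here set IMR32 cells sampled at t = 24 after MSX1 induction (3 arrays) against the same induced cells at t = 8 (3 arrays), that is 6 of the 15 arrays of the series, chosen by their titles. IMR32 is an established human neuroblastoma line. It had been transfected with MSX1 under doxycycline control, and doxycycline was added to the medium of both groups, so the comparison is between an earlier and a later time under the same induction. The other arrays are cells at t = 0 (3 arrays), induced cells at t = 48 (3 arrays) and control cells grown to t = 48 without doxycycline (3 arrays). The unit of t is not stated in the labels. Control cells were not measured at t = 8 or t = 24, and no cells without the MSX1 construct were given doxycycline, so induction, exposure to doxycycline and time in culture cannot be told apart in this step. The labels do not say whether the line was 1 clone or a pool, or whether replicates came from separate cultures; the spread behind each p-value is that of these samples and may be purely technical.

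MSX1 is a homeodomain transcription factor of the neural crest, limb bud and tooth germ, where it acts downstream of BMP signals and mostly represses its targets through a core site that contains TAATTG. Neuroblastoma arises from the sympathoadrenal branch of the neural crest. A step between consecutive times of an induction can hold genes that answer the factor directly but slowly, genes that answer the first set of changed genes, and genes that follow growth of the culture, and arrays of whole cell populations do not separate these.

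On the deposited scale the signal of a probe set is a linear intensity, and the trimmed mean was 100.01 on every array. Differences are on the log2(signal + 5.16) scale, which understates the change of dim genes. A gene was said to rise or fall when its p from limma, fitted to all 15 arrays and adjusted by the Benjamini-Hochberg method over 12880 genes, was under 0.05. Between t = 8 and t = 24, 808 genes (6.27%) passed, of which 444 (3.45%) rose and 364 (2.83%) fell. The rises were larger than the falls: 56 genes (0.435%) rose by at least 2-fold on this scale and 4 (0.0311%) fell by as much, and the median size was 0.58 among genes that rose and -0.43 among genes that fell, beside -0.01 over all genes tested. At an unadjusted p under 0.05 in the same limma fit, 2912 genes (22.6%) passed in either direction, the share against which the unadjusted counts of the lists are to be read. The 3 arrays of each group did not overlap for 806 of the 808, and for 3585 genes (27.8%) among all those tested. The split between directions moved with the scaling: centring each array on the median of the genes tested gave 342 higher and 679 lower, quantile normalization gave 392 and 376, and centring on the median of all probe sets gave 163 and 68. Leaving out 1 array lowered the count to 398, 468 and 534 without t = 8 replicates 1, 2 and 3, and to 402, 567 and 489 without t = 24 replicates 1, 2 and 3.

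**Figure D1:**
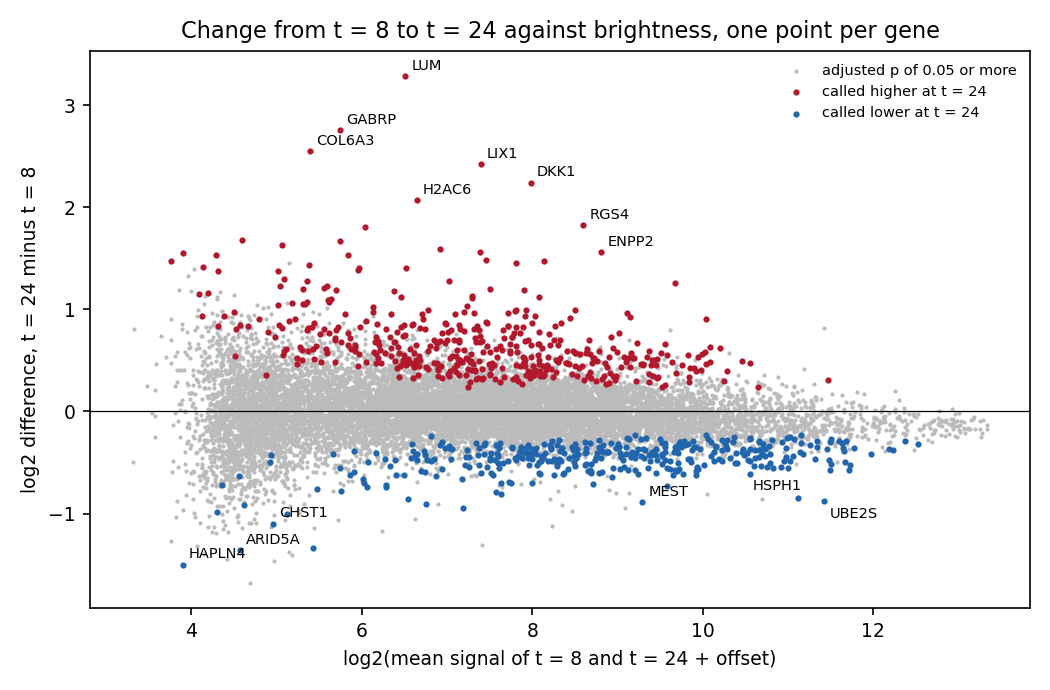
Difference between t = 24 and t = 8 (log2, vertical axis) of each gene tested against its brightness (log2 of the mean signal of both groups plus the offset, horizontal axis), with 3 arrays in each group. Red points are the 444 genes that rose and blue points the 364 that fell; the largest rises, led by LUM at 3.28, lie in the lower part of the brightness range and reach further from 0 than the falls.

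The bioC hybridisation control, spiked bacterial RNA at a fixed amount, was 559.5 to 600.4 on the t = 8 arrays and 122.2, 546.5 and 540.7 on the t = 24 arrays, the low value being replicate 1 (exact two-sided permutation p = 0.1, the smallest that 3 against 3 allows). Without that array and the other array of the series with a weak control, 490 genes passed, 283 higher and 207 lower. The ratio of 3′ to 5′ signal, a measure of RNA integrity, was 1.01 in each group for GAPDH, and 1.21 to 1.32 at t = 8 and 1.28 to 1.35 at t = 24 for ACTB (exact permutation p = 0.3). Of 20 markers of neuroblastoma, 17 passed the filter, of which NCAM1 (0.34) and ELAVL4 (0.40) rose and TUBB3 (-0.44) fell, and the list's summed signal was 19931 to 22122 at t = 8 and 20827 to 21612 at t = 24. Other NCAM1 probe sets that were kept gave 0.40, 0.32 and -0.34. TH, the first enzyme of catecholamine synthesis, was near background in both groups (7.27 and 2.33). The markers of Schwann cells summed to 45.3 to 85.5 and 47.7 to 55.8, of blood and endothelium to 110.4 to 165.8 and 108.7 to 153, and of epithelium to 59.7 to 84.7 and 74.2 to 92.1. The 14 fibroblast markers summed to 2285 to 2536 at t = 8 and 3049 to 3252 at t = 24. Of the 11 that were kept, LUM, COL3A1 and COL1A1 rose, 8 did not pass and 4 lay below 0. FBLN1 (mean 541 and 532), THY1 (96.9 and 88.6), PDGFRB (34.9 and 34.7), ACTA2 (48.4 and 44.3) and TAGLN (33.1 and 18.2) were level or lower at t = 24. PDGFRA (995 and 1198), S100A4 (19.2 and 31.8) and DCN (15.8 and 22.2) had higher means at t = 24 without passing. Of the markers not kept, COL1A2 went from 5.10 to 14.9, while FAP (4.83 and 3.60) and POSTN (0.60 and 2.13) were near background in both groups. Whether cells of another type had a part in the rise was not tested.

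MSX1 itself did not pass in this step. Its signal was 184.1, 158.2 and 140.1 on t = 8 replicates 1, 2 and 3 and 142.2, 171.5 and 182.3 on the t = 24 arrays, so that the groups overlapped, and the difference was 0.04 (SE 0.15, limma adjusted p = 0.904). It was 115.6, 121.5 and 95.5 at t = 0, 96.9, 67.7 and 84.9 in induced cells at t = 48, and 46.5, 50.2 and 55.5 in control cells at t = 48. A second, dimmer MSX1 probe set gave -0.09. Whether either probe set detects the RNA of the construct is not stated in the labels. These values may therefore reflect the endogenous gene alone or the endogenous gene and the construct together.

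The 6 largest rises were of LUM, GABRP, COL6A3, LIX1, DKK1 and H2AC6. LUM encodes lumican, a small proteoglycan that binds collagen fibrils, and its signal went from 11.2, 14.3 and 9.7 at t = 8 to 182.9, 129.4 and 167.7 at t = 24 (log2 difference 3.28, SE 0.21, limma adjusted p = 5.47e-06). The t = 8 values all lay under the lowest median signal of any array, 18.1, and the t = 24 values all lay far above the highest, 22.6. A dim other probe set of LUM, which the filter removed, gave 0.88. GABRP, the pi subunit of the GABA-A receptor, went from 15, 2.3 and 11.6 to 87.5, 85.7 and 87.4 (2.76, SE 0.27, limma adjusted p = 0.000145). The t = 24 arrays of GABRP differed by less than 2 units of signal, while those at t = 8 were dim and scattered. COL6A3, a chain of the microfibril-forming collagen VI, went from 1.9, 13.8 and 8.1 to 68.0, 66.5 and 63.0 (2.55, SE 0.39, limma adjusted p = 0.00269). LIX1 went from 35.9, 50.2 and 58.7 to 304.5, 240.9 and 286.5 (2.42, SE 0.19), and its other probe set gave 1.83. DKK1, a secreted inhibitor that blocks the Wnt co-receptors LRP5 and LRP6, went from 109.1, 70.9 and 71.5 to 355.6, 402.1 and 473.3 (2.24, SE 0.18, limma adjusted p = 3.32e-05). H2AC6, one of the replication-dependent H2A histones, went from 39.2, 30.4 and 29.9 to 131.6, 157.1 and 179.8 (2.07, SE 0.16). For all 6 genes the lowest t = 24 array lay above the highest t = 8 array, which was a condition for being chosen. The call of each held, which here means that the gene passed whichever 1 of the 6 arrays was left out. Of 147 named genes that passed, 80 held and 67 lost the call without at least 1 array. Holding covers only the loss of 1 array. With limma fitted to the 6 arrays alone 107 named genes lost their call, and 72 did with each array centred on the median of all probe sets. Only 36 kept their call under every alternative in which they were judged.

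The next 14 rises ran from 1.82 to 1.47. RGS4, which speeds the switching off of G protein signals, was at 161.9, 150 and 183.5 and then at 531.0, 608.8 and 653.9 (1.82, SE 0.15). AVPR1A, a vasopressin receptor (1.80), SLITRK6, a neuronal leucine-rich repeat membrane protein (1.60), and P2RX3, an ATP-gated channel of sensory neurons (1.55), are further genes of signal reception. ENPP2 encodes autotaxin, the secreted enzyme that makes lysophosphatidic acid, and went from 215.8, 212.7 and 236.2 to 586.0, 730.2 and 682.0 (1.56, SE 0.19). STAMBPL1, a deubiquitinase, went from 75.1, 77.5 and 85.6 to 229.5, 268.0 and 237.9 (1.56, SE 0.09). COL3A1 (1.67), SPOCK1, a testican proteoglycan (1.48), COLQ, the collagen tail of acetylcholinesterase (1.68), ADAMTS2, a procollagen peptidase (1.63), and HAS2, a hyaluronan synthase (1.53), are genes of the matrix. The remaining genes were AMPD3, an AMP deaminase (1.53), the histone H2AC25 (1.48) and the antisense RNA ICA1-AS1 (1.47). Among the 20, COLQ, ADAMTS2, HAS2 and ICA1-AS1 lost their call without at least 1 array, with highest adjusted p of 0.0758, 0.0949, 0.073 and 0.0708. The mean at t = 8 was under the highest array median of 22.6 for 9 of the 20, so their size depends on the offset and on values near background.

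The largest falls were smaller, and many were of dim genes. HAPLN4, a link protein that binds hyaluronan in the matrix around neurons, went from 14.4, 20.9 and 15.3 to 3.5, 1.8 and 2.5 (-1.50, SE 0.38, limma adjusted p = 0.039), and all 6 values lay under 22.6. ARID5A went from 30.0, 29.8 and 25.5 to 3.4, 7.6 and 15.4 (-1.36, SE 0.34), and MAPK8IP1, a scaffold of the JNK kinase cascade, from 57.0, 47.8 and 63.4 to 13.7, 16.6 and 28.9 (-1.34, SE 0.31). The t = 24 arrays of these 3 genes were all below their t = 8 arrays, which was a condition for being chosen. The call of HAPLN4 was lost whichever 1 of the 6 arrays was left out. Those of ARID5A and MAPK8IP1 were lost for 5 of these 6 choices. The limma adjusted p of the 3 genes went up to 0.117, 0.135 and 0.1. CHST1, a sulfotransferase of keratan sulfate, went from 49.7, 32.3 and 29.9 to 17.1, 10.0 and 16.6 (-1.10, SE 0.20). PCDHGB5, a clustered protocadherin, went from 44.2, 39.3 and 40.3 to 17.8, 22.8 and 14.3 (-0.999, SE 0.19). The long noncoding RNA GRASLND went from 14.9, 25.4 and 22.8 to 10.3, 5.4 and 8.5 (-0.98, SE 0.21), and lost its call without 3 of the arrays (adjusted p up to 0.0723).

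Several of the other large falls were of brighter genes. MEST, an imprinted gene of the mesoderm, was at 779.4, 835.7 and 808.0 and then at 381.5, 469.5 and 455.5 (-0.89, SE 0.09, limma adjusted p = 0.000145). ENC1, an actin-binding protein of neurons (-0.94), IGFBP4, which binds insulin-like growth factors (-0.91), PALM3 (-0.86), TESC (-0.81), ELMOD3 (-0.76) and NPY, a sympathetic neuropeptide (-0.74), held whichever array was left out. HSPH1, the cytosolic chaperone of the Hsp110 family, went from 3039, 2785 and 2732 to 1513, 1602 and 1619 (-0.85, SE 0.09), and DNAJB1, its J-domain partner, from 937.1, 941.0 and 972.2 to 531.8, 540.4 and 641.5 (-0.73, SE 0.08). UBE2S, the chain-extending ubiquitin-conjugating enzyme of the anaphase-promoting complex, was at 1293.9 on t = 24 replicate 1 against 2337 and 2266 on the other t = 24 arrays and 3282 to 3667 at t = 8 (-0.88), and without that array its difference was -0.60 (limma adjusted p up to 0.0924 with 1 array left out). The calls of HOXB9 (-0.92), SDF2L1 (-0.79), POLH (-0.78) and IER5L (-0.74) were also lost without at least 1 array, with highest adjusted p of 0.0717, 0.0686, 0.069 and 0.133. A dim other probe set of POLH gave 0.66 and did not pass.

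**Figure D2:**
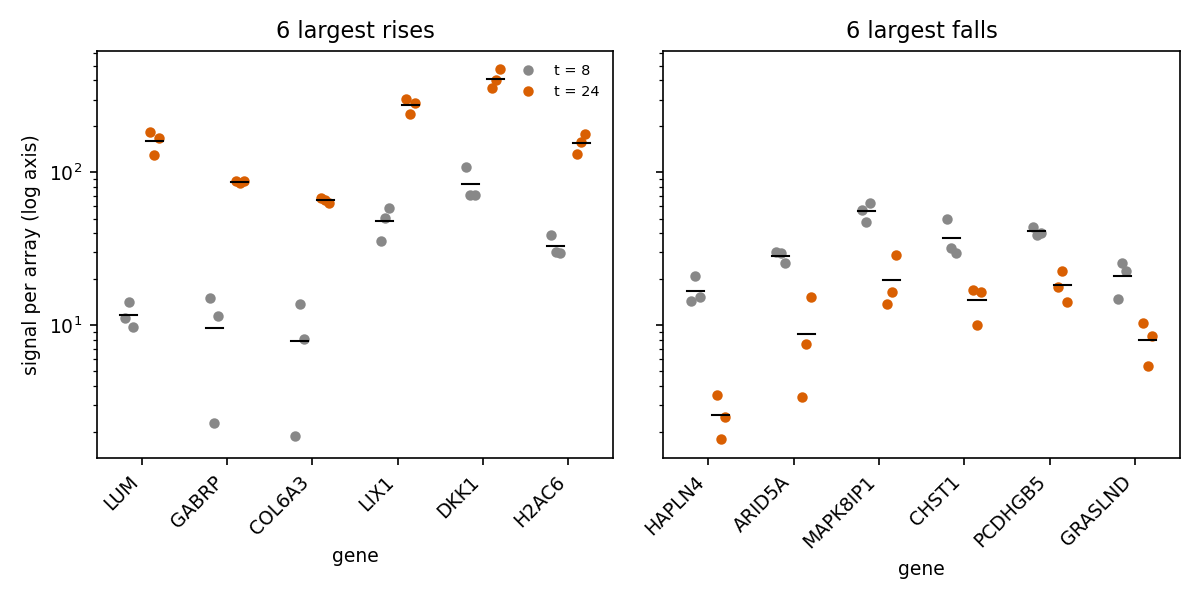
Signal of the 6 largest rises (left) and the 6 largest falls (right) on each array, on a log axis, with t = 8 in grey, t = 24 in orange and a bar at each group's mean (n = 3). The 12 genes were chosen among those whose groups do not overlap. LUM is at 9.7 to 14.3 at t = 8 and 129.4 to 182.9 at t = 24, and several falls end below a signal of 10.

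The promoters of 28 of these 40 genes matched the RefSeq table (GRCh38.p14), and the 250 bases before the start of 3 of them held TAATTG on either strand, the core letters of the site that MSX1 binds: 1 of 14 rises and 2 of 14 falls. The windows around those letters are printed, in lower case with the match in capitals, because they are the only matches among the largest changes. The first lies before H2AC6 at chr6:26123938-26124063 on the plus strand, with the match starting 174 bases before the start; the second before PCDHGB5 at chr5:141397754-141397879, plus strand, 133 bases before the start and on the opposite strand; the third before MEST at chr7:130485925-130486029, plus strand, 211 bases before the start.
H2AC6: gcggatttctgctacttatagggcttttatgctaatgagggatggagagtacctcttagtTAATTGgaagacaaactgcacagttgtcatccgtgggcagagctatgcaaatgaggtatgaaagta
PCDHGB5: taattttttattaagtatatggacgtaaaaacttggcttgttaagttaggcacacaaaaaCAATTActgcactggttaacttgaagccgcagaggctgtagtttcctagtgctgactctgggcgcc
MEST: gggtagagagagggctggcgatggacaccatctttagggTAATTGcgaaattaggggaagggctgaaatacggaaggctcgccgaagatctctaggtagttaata
Over all genes tested with a promoter in the table, 406 of 10428 (3.89%) held these letters, beside 18 of 356 (5.06%) that rose and 11 of 307 (3.58%) that fell. The match is a description of the letters and shows neither binding nor its absence.

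Some collagens and other matrix genes rose, and most members of these lists did not pass. Of 17 collagen genes measured, 6 (35.3%) rose and none fell, beside 3.45% and 2.83% over all genes, and their median difference was 0.45; at an unadjusted p under 0.05 in the same limma fit the counts were 8 and 0. The largest were COL6A3 (2.55), COL3A1 (1.67), COL25A1, a membrane collagen of neurons (0.95), and COL1A1 (0.66). COL1A1, the main chain of collagen I, went from 513.7, 576.8 and 646.0 to 1060.0, 795.5 and 900.3, with no overlap. COL1A1 and COL25A1 lost their calls without t = 8 replicate 1 or 2 or t = 24 replicate 1, and COL1A1 also without t = 24 replicate 3, with adjusted p up to 0.0847 and 0.0584, and 3 collagens passed without t = 24 replicate 1. One of the other COL1A1 probe sets went the opposite way (-0.34, not passed). The collagen-modifying enzymes did not move as 1 group: of 19, P3H2 (1.38) and P4HA1 (0.39), both hydroxylases, rose and SERPINH1, the collagen chaperone Hsp47, fell from 979 ± 19.8 (SD, n = 3) to 689 ± 32.5 (-0.51), with a median of 0.04; only SERPINH1 kept its call whichever array was left out, and the adjusted p of P3H2 and P4HA1 went up to 0.138 and 0.123.

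Other adhesion and matrix genes rose in smaller shares. Fibronectin, FN1, went from 406.5, 407.8 and 342.4 to 737.2, 802.0 and 671.1 (0.93, SE 0.13), with all t = 24 arrays above the t = 8 arrays, and 2 of its other probe sets gave 1.17 and 1.04 while a dim one gave -0.04. With LUM, SPOCK1 and MATN2 (0.61) it made up the 4 rises among 32 proteoglycans and glycoproteins (12.5%), of which HAPLN4 alone fell. MMP2, the gelatinase that cuts denatured collagen, went from 164.9, 176.6 and 152.2 to 337.1, 360.8 and 395.8 (1.12, SE 0.10, limma adjusted p = 5.82e-05). Among 26 matrix proteases and inhibitors, 5 (19.2%) rose: MMP2, PLAT, the tissue plasminogen activator (0.78), ADAMTS5 (0.61), ADAMTS9 (0.29) and the sheddase ADAM10 (0.29). The last 3 lost their call without 5 or 6 of the single arrays (adjusted p up to 0.148, 0.11 and 0.0804), and 2 of the 26 passed without t = 24 replicate 1. ITGA6 (0.99), ITGA1 (0.54) and LAMB1 (0.43), 2 integrin chains and a laminin chain, rose among 18 (16.7%). ITGA6 and LAMB1 lost their calls without at least 1 array, with adjusted p up to 0.0707 and 0.0961. Of 19 cadherins and protocadherins, FAT4 (0.89) and CDH11, a mesenchymal cadherin (0.66), rose.

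In the signalling lists, antagonists of the Wnt and BMP pathways outside the cell were among the genes that rose. Of 5 secreted Wnt antagonists measured, DKK1 (2.24) and SFRP1 rose, SFRP1 from 837 ± 151 (SD, n = 3) to 1243 ± 51.8 (0.58, SE 0.13), but without t = 24 replicate 1, for example, SFRP1 did not pass (adjusted p up to 0.073 with 1 array left out). Of 19 Wnt ligands and receptors, FZD7 was the 1 that fell (-0.24) and no member rose (4 rose at an unadjusted p under 0.05 in the limma fit); FZD7 lost its call without any 1 of the arrays (adjusted p up to 0.138). LGR4, the R-spondin receptor that strengthens Wnt signals, went from 143.1, 155.8 and 167.9 to 310.5, 254.4 and 276.5 (0.83, SE 0.13) and held. Of 16 BMP targets and antagonists, 4 (25%) rose, with a median of 0.20. NOG, noggin, which binds BMPs outside the cell, went from 20.1, 25.2 and 23.4 to 49.2, 54.9 and 77.6 (1.21, SE 0.17), HEY1, a Notch and BMP target repressor, from 224 ± 42.9 (SD, n = 3) to 414 ± 71.8 (0.87, SE 0.17), and SMAD9, a BMP-activated SMAD, from 895.4, 890.1 and 992.7 to 1452.7, 1428.3 and 1398.2 (0.62, SE 0.07). The groups of these 3 genes did not overlap and their calls held, while that of the fourth, the pseudoreceptor BAMBI (0.38), was lost without 4 of the arrays (adjusted p up to 0.0791). Of the BMP and TGF-beta ligands and receptors, GDF11 (0.82) and ACVR1 (0.46) rose among 19, with a median of -0.05 that became 0.05 without the arrays with weak controls, and neither held (adjusted p up to 0.103 and 0.114).

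Of 25 Notch genes, 3 (12%) rose: HEY1, the ligand DLL1 (0.68) and the coactivator MAML3 (0.40). DLL1 lost its call without any 1 array (adjusted p up to 0.155), and averaging the probe sets of MAML3 turned its difference to -0.05, and a dim other probe set gave -0.82. Of 9 Hedgehog genes, GAS1, a co-receptor (0.70), GLI3 (0.43) and the co-receptor CDON (0.35) rose, of which GAS1 held and GLI3 and CDON did not (adjusted p up to 0.134 and 0.128). The retinaldehyde dehydrogenase ALDH1A3 (0.58) was the 1 of 11 retinoic acid genes that rose, and IL17RD (0.61), an inhibitor of FGF signals, and MAPK8IP1 were the rise and the fall among 25 FGF and ERK genes. Of 18 immediate early genes, IER5 (-0.41) and ATF3 (-0.59) fell and none rose in the limma fit (2 rose at an unadjusted p under 0.05). SOCS2 (0.64) rose and CXCL12, a chemokine (-0.32), and ARID5A fell among 22 cytokine genes. The calls of IL17RD, ATF3, SOCS2 and CXCL12 were lost without 3 to 5 of the single arrays (adjusted p up to 0.0864, 0.109, 0.0823 and 0.0927). No member of 11 YAP and TEAD target genes passed in the limma fit, and 3 did at an unadjusted p under 0.05.

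Among transcription factors, MSX2 and DLX5 of the MSX and DLX families rose. Of 19 MSX and DLX homeobox genes and their partners, 5 (26.3%) rose and none fell in the limma fit (2 fell at an unadjusted p under 0.05), with a median of 0.08. MSX2, the closest paralog of MSX1, went from 42.6, 59.4 and 36.6 to 95.9, 110.2 and 123.6 (1.18, SE 0.15, limma adjusted p = 0.00108), and DLX5 from 111.6, 94.0 and 110.1 to 160.7, 167.8 and 158.8 (0.61, SE 0.10). EYA4 (0.59) also held, although a dimmer probe set gave -0.11, while LHX8 (0.47) and EYA1 (0.37) did not (adjusted p up to 0.141 and 0.12), and 3 of the 19 passed without t = 8 replicate 1. SOX9, a factor of neural crest and cartilage, went from 343 ± 25.9 (SD, n = 3) to 480 ± 36.9 (0.48, SE 0.09) and was the 1 rise among 13 mesenchymal and crest regulators. Of 25 adrenergic regulators of neuroblastoma, TBX2 (0.51) and MEIS1 (0.30) rose, of 16 proneural genes MYT1 (0.88) rose, and of 16 HOX genes HOXB9 fell. TBX2 and MEIS1 lost their calls without any 1 array, and MYT1 without 5, with adjusted p up to 0.143, 0.154 and 0.112. A median above 0 was found over the adrenergic (0.19) and the proneural list (0.19), with 21 of 25 and 10 of 16 members above 0.

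Neuronal genes passed in both directions. Of 31 genes of the neuronal cytoskeleton, DCX, a microtubule protein of migrating neurons, rose from 198.7, 185.8 and 198.5 to 321.0, 352.6 and 334.5 (0.77, SE 0.10), as did the intermediate filament PRPH (0.96) and the RNA-binding protein ELAVL4 (0.40). ENC1 (-0.94) and the tubulin TUBB3 (-0.44) were the larger of 3 falls in that list, and TUBB3 did not hold (adjusted p up to 0.0616). Of 22 granin, neuropeptide and catecholamine genes, ADRA2A, the alpha-2A adrenergic receptor, went from 88.1, 97.0 and 95.9 to 205.0, 172.7 and 189.8 (0.97, SE 0.16), and SLC6A2, the noradrenaline transporter, from 143.0, 170.6 and 162.6 to 271.3, 271.1 and 274.9 (0.76, SE 0.11). The neuropeptides NPY (-0.74) and GAL (-0.52) fell in the same list. Dim other probe sets of SLC6A2 and GAL gave -0.24 and 0.16, and neither passed. SYN2 (0.53) and SYT1 (0.40), genes of the synaptic vesicle, rose among 26, SYT1 without holding (adjusted p up to 0.0518), and GABRP and P2RX3 were the 2 rises among 20 transmitter-gated receptor subunits, whose median was -0.07.

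Of 41 axon guidance genes, 6 (14.6%) rose and none fell in the limma fit (2 fell at an unadjusted p under 0.05). NTN4, a netrin, went from 15.5, 8.4 and 15.4 to 45, 37.3 and 42.0 (1.37, SE 0.24), SEMA6A, a transmembrane semaphorin, from 122.0, 124.7 and 123.2 to 210.5, 205.1 and 189.1 (0.69, SE 0.10), and UNC5C, a netrin receptor, from 143 ± 29.0 (SD, n = 3) to 250 ± 26.2 (0.79, SE 0.15). The 3 calls held, while NRP1 (0.82) lost its own without 3 of the arrays (adjusted p up to 0.0973), and 3 of the 41 rose without t = 24 replicate 3. Of 26 voltage-gated channel genes, 5 (19.2%) rose and 1 fell. CACNA2D1, an accessory subunit of calcium channels, went from 161 ± 27.0 (SD, n = 3) to 310.1 ± 7.99 (0.94, SE 0.12) and held. KCNQ5 (0.83), CACNA1D (0.81) and CACNA1B (0.62) lost their calls without 4 or 5 of the arrays, with adjusted p up to 0.0887, 0.138 and 0.0814, and 1 channel gene rose without t = 24 replicate 1. A dim other probe set of CACNA1D gave -0.14 and did not pass. ALK, the receptor kinase mutated in a share of neuroblastomas, went from 417.9, 455.7 and 503.5 to 682.9, 789.8 and 719.5 (0.67, SE 0.10) and held, and NTRK3 (0.85) did not (adjusted p up to 0.148). These 2 made up the rises among 12 neurotrophin and GDNF receptor genes.

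Most genes of the mitotic list and a smaller part of the replication list fell. In RNA of whole cell populations, fewer cells of a kind and less RNA per cell cannot be told apart, here and in the other lists. Of 57 genes of G2 and mitosis, 34 (59.6%) fell, none rose at either an adjusted or an unadjusted p under 0.05 in the limma fit, and 56 of 57 differences lay below 0, with a median of -0.42 beside -0.01 over all genes. AURKA, the kinase of the spindle poles, went from 987.2, 993.6 and 915.7 to 588.8, 622.0 and 663.0 (-0.62, SE 0.08, limma adjusted p = 0.00108), and its second bright probe set gave the same size (-0.62). AURKB, the kinase of the chromosomal passenger complex, went from 679.8, 755.0 and 732.9 to 397.0, 509.7 and 514.6 (-0.61, SE 0.13). SPC25, of the kinetochore (-0.60), and KIF22, a chromosome-borne kinesin (-0.58), completed the 4 largest. The falls that passed ran from -0.62 to -0.28, all 3 t = 24 arrays of each of these 4 genes lay below the t = 8 arrays, and the calls of AURKB and KIF22 were lost without 3 and 4 of the arrays (adjusted p up to 0.0773 and 0.0973). Of 47 genes of the G1-S transition and DNA replication, 13 (27.7%) fell, with a median of -0.27 and 45 of 47 below 0. TK1, thymidine kinase, went from 901 ± 37.4 (SD, n = 3) to 614 ± 49.6 (-0.55), TYMS, thymidylate synthase, from 2421 ± 162 to 1730 ± 98.7 (-0.48), GINS1 from 1750 ± 125 to 1252 ± 102 (-0.48), and the chromatin assembly subunit CHAF1A from 395 ± 38 to 287 ± 16.2 (-0.45). CHAF1A alone of these 4 lost its call with 1 array left out (adjusted p up to 0.0744).

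The inhibitors of the cycle passed in both directions. Of 21 inhibitor and growth arrest genes, GAS2 (0.81), GAS1 (0.70), CDKN1C and BTG1 (0.46, adjusted p up to 0.0531 with 1 array left out) rose. CDKN1C, which encodes the inhibitor p57, went from 457 ± 49.1 (SD, n = 3) to 679 ± 51.2 (0.57, SE 0.09) and held. CDKN1A, which encodes p21, a target of p53, went the other way, from 322 ± 29.0 to 210 ± 24.9 (-0.61, SE 0.13), and lost its call without 3 of the arrays (adjusted p up to 0.0749). BCL2L11 (0.40) was the 1 of 23 genes of the BCL2 family and apoptosis that passed, and it did not hold (adjusted p up to 0.141). Of its other kept probe sets, a dimmer one gave -0.05 and the rest 0.20 to 0.31, and none passed.

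Some chaperones and proteasome subunits fell, and most members of both lists did not pass. Of 27 heat shock and J-domain genes, 9 (33.3%) fell and 1 rose, with a median of -0.28. HSPH1 (-0.85), DNAJB1 (-0.73), HSPA4L (-0.70) and STIP1, the adaptor between Hsp70 and Hsp90 (-0.54), fell most, and the calls of all 4 held; HSPA4L went from 255.6, 262.5 and 267.8 to 155.8, 168.0 and 155.6. Of 27 proteasome subunits, 12 (44.4%) fell and all 27 differences lay below 0, from -0.61 to -0.15, with a median of -0.34. PSMC3 (-0.61), PSMD14 (-0.55), PSMA5 (-0.53) and PSMC2 (-0.51) fell most and held; PSMD14, the deubiquitinase of the lid, went from 2137 ± 44.0 (SD, n = 3) to 1462 ± 116. No member of the proteasome list rose at an adjusted or unadjusted p under 0.05 in the limma fit. Of 22 genes of the unfolded protein response, SDF2L1 (-0.79), MANF (-0.56) and SEC61B (-0.25) fell, and MANF alone of these held; the adjusted p of SEC61B went up to 0.144.

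In other growth lists few members passed. Of 59 mitochondrial ribosomal proteins, 7 (11.9%) fell, with a median of -0.21 and 55 below 0, led by MRPL18 (-0.43), MRPL39 (-0.40), MRPL27 (-0.40) and MRPS25 (-0.39); MRPL27 alone held, and without t = 8 replicate 1 a single member passed. Of 48 oxidative phosphorylation genes, NDUFB2 (-0.29) and CYC1 (-0.28) fell, of 36 ribosome biogenesis genes NOP2 (-0.31), of 29 sterol and fatty acid genes ACAT2 (-0.46) and of 21 aminoacyl-tRNA synthetases SARS1 (-0.35). Their medians were -0.18, -0.11, -0.04 and -0.17, and no member of these lists rose at an adjusted or unadjusted p under 0.05. The calls of these 5 genes were each lost without 3 to 6 of the arrays, with adjusted p up to 0.155, 0.152, 0.103, 0.0621 and 0.109. The other probe sets of MRPS25 gave -0.08 and 0.33, those of NDUFB2 gave -0.28 and 0.21, and none of them passed. Of 24 lysosome genes, GLA (-0.47) and SQSTM1 (-0.47) fell and held, although a dimmer SQSTM1 probe set gave 0.01. In the hypoxia and glycolysis list 7 of 36 (19.4%) rose and 2 fell, with a median of 0.10. This balance turned with the scaling: centring on the genes tested gave 4 higher and 6 lower, centring on all probe sets 2 and 0, and quantile normalization 7 and 0, while the replicate block gave 4 and 0, and the medians stayed above 0. DDIT4, an inhibitor of mTORC1, had the largest rise in the list, from 495.5, 452.4 and 474.0 to 980.7, 1161.6 and 1301.6 (1.26, SE 0.14, limma adjusted p = 0.000359). VEGFA (0.96), PDK1, which restrains pyruvate oxidation (0.79), and MXI1 (0.50) rose too, the first with a dim other probe set at -0.07. DDIT4 and PDK1 held, and VEGFA and MXI1 did not (adjusted p up to 0.0635 and 0.0883). The glycolytic enzyme PGK1 fell in that list (-0.27, adjusted p up to 0.143). Without t = 8 replicate 1, 2 members of the list rose. Of 30 genes of amino acid synthesis and the integrated stress response, 4 fell, PHGDH (-0.51) and ASNS (-0.39) among them, and DDIT4 and VEGFA rose; ASNS held and PHGDH did not (adjusted p up to 0.0851).

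Brightness and scaling moved with these falls. With the genes in 4 groups of equal size by brightness, 209 of the 3220 brightest (6.49%) fell and 81 (2.52%) rose, with a median of -0.07, and of the dimmest 12 (0.373%) fell and 75 (2.33%) rose. All 27 proteasome subunits, 46 of the 57 mitotic genes, 29 of the 47 replication genes, 20 of the 27 heat shock genes and 2 of the 17 collagens lay in the brightest group, and the part of brightness in their falls was not tested. Quantile normalization, which gives all arrays 1 distribution of signal, left 32 mitotic, 10 replication, 8 proteasome and 8 heat shock genes lower and 6 collagens higher, with medians of -0.39, -0.25, -0.24, -0.21 and 0.42. Centring on the median of all probe sets left 7, 1, 3, 6 and 3, with medians of the same sign. Of 15 housekeeping genes, CYC1 and PGK1 fell, with a median of -0.19 that became -0.08 under quantile normalization, where neither passed. With 1 array left out, 21 to 29 mitotic genes fell (21 without t = 24 replicate 1), 6 to 9 replication genes, 6 to 12 proteasome subunits (in both lists fewest without t = 8 replicate 1) and 9 to 10 heat shock genes. When limma was fitted to the 6 arrays of the step alone, only 15 genes fell among all those tested. The counts of falls in these lists therefore rest on the spread estimated over all 15 arrays.

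**Figure D3:**
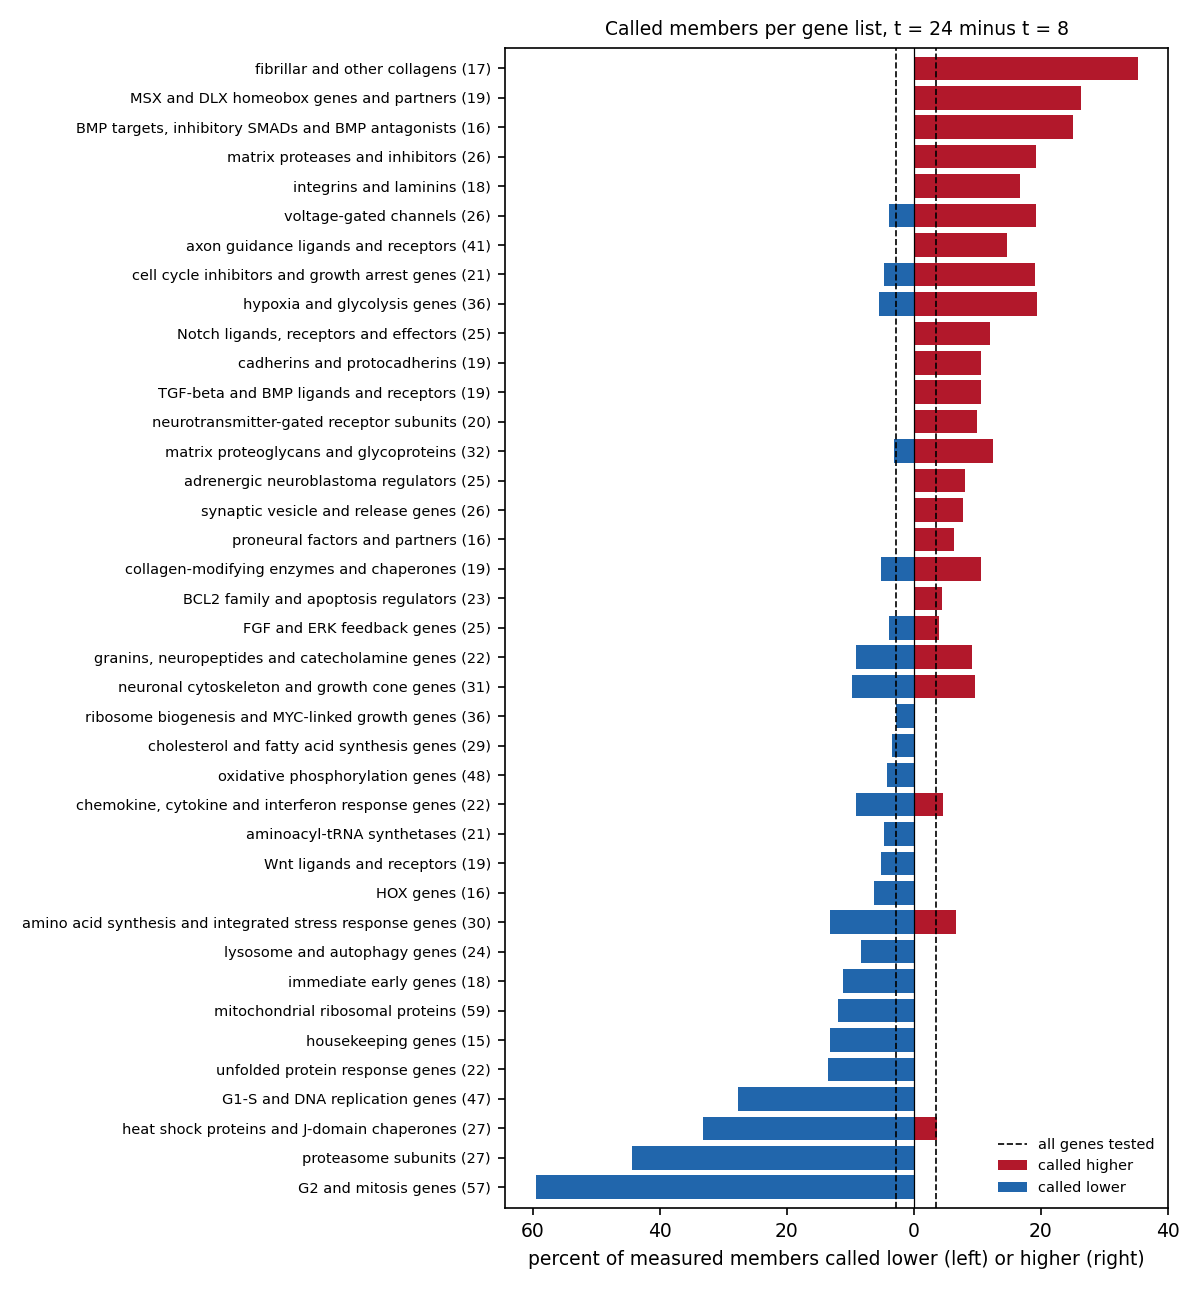
Percent of the measured members of each gene list that rose (red, to the right) or fell (blue, to the left) between t = 8 and t = 24, for lists with at least 15 members measured, with the number measured in brackets. The dashed lines are the shares over all genes tested, 3.45% and 2.83%; the mitotic list reaches 59.6% on the side of falls and the collagens 35.3% on the side of rises.

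**Figure D4:**
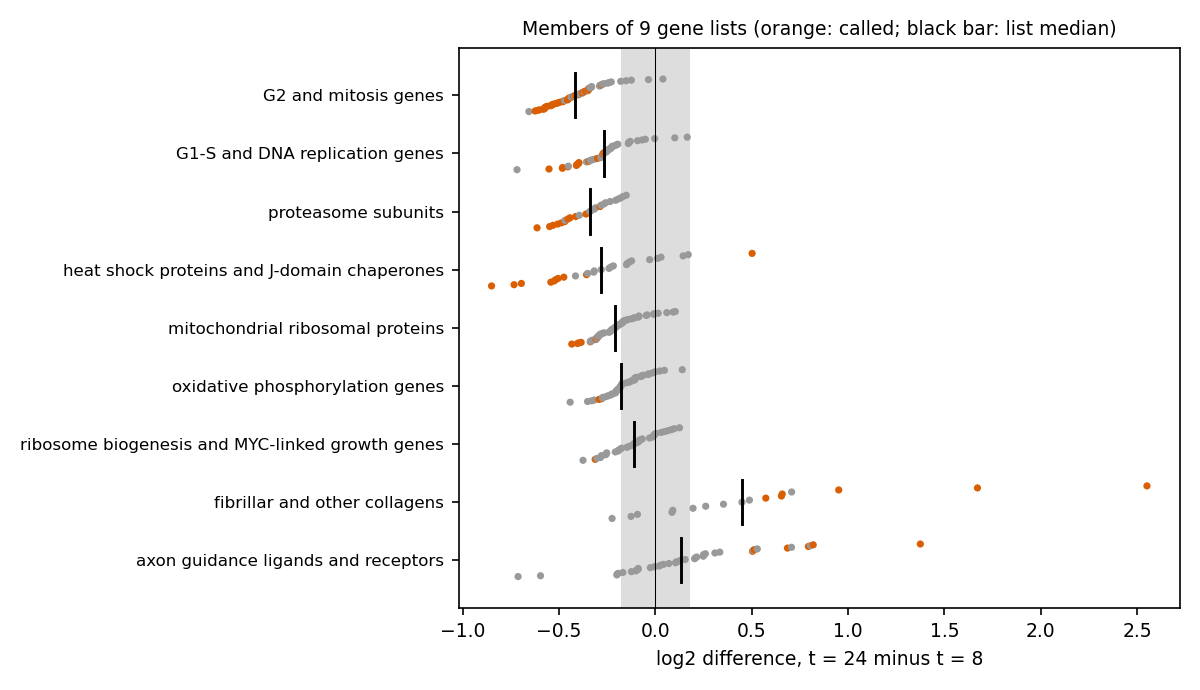
Log2 difference between t = 24 and t = 8 of each measured member of 9 lists, in order within a list, with genes that passed in orange, others in grey and a black bar at the list median; the shaded band holds the middle 50% of all genes tested. The mitotic and proteasome members sit almost wholly left of 0 (medians -0.42 and -0.34), while the collagens spread to the right as far as 2.55.

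The genes of this step were also compared in arrays that it did not use. Induced against control cells at t = 48 shared no array with it, and there 1101 genes (8.55%) passed, 678 (5.26%) higher and 423 (3.28%) lower. Without 1 array at a time the count was 816, 709 and 625 (induced t = 48 replicates 1, 2 and 3) and 674, 659 and 707 (control replicates 1, 2 and 3). Of the 444 genes that rose from t = 8 to t = 24, 214 were higher in induced cells at t = 48 (48.2% of the 444 and 31.6% of the 678) and 13 were lower. Of the 364 that fell, 115 were lower there (31.6% of the 364 and 27.2% of the 423) and 5 were higher. Among the 20 largest rises 17 were higher in induced cells at t = 48, with LIX1 at 4.02, COL6A3 at 3.35, GABRP at 3.20 and ENPP2 at 3.02, and the exceptions were DKK1, AVPR1A and AMPD3. Among the 20 largest falls 4 were lower there: ENC1 (-1.72), MEST (-1.39), TESC (-1.12) and PALM3 (-0.79). Of the named genes, ADAMTS5, ADAMTS9, SMAD9, EYA1, ADRA2A and CD9 rose in this step and were lower in induced than in control cells at t = 48. ADRA2A, for example, was 80.0 in induced and 204 in control cells at t = 48 (-1.28, limma adjusted p = 0.000311).

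The same lists were counted in induced against control cells at t = 48, and differences between lists were not tested. Of the 57 mitotic genes 30 were lower in induced cells at t = 48, and of the 47 replication genes 15, with medians of -0.36 and -0.27, and 5 of the 17 collagens were higher. The proteasome had 3 of 27 members lower, with a median of -0.23. Of the 27 heat shock genes 1 was higher, with a median of -0.10. HSPH1 was 1677 in induced and 1728 in control cells at t = 48 (-0.04, SE 0.09, limma adjusted p = 0.813).

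Time in culture without doxycycline, control cells at t = 48 against t = 0, moved 109 genes (0.846%), 62 higher (0.481%) and 47 lower (0.365%). This comparison too used none of the step's arrays for its means and shared the estimate of spread. The count was 44, 58 and 70 without t = 0 replicates 1, 2 and 3, and 88, 51 and 33 without control replicates 1, 2 and 3. With its own 6 arrays alone limma called 0 genes (1439 at an unadjusted p under 0.05), and with centring on all probe sets 31, so the genes named from this comparison rest on the spread estimated over all 15 arrays. Of the 444 rises, 24 were higher there (5.41% of the 444 and 38.7% of the 62) and 9 were lower, and of the 364 falls 2 were lower. RGS4 (1.53), ENPP2 (1.59), SPOCK1 (0.56) and STAMBPL1 (0.45) were the 4 of the 20 largest rises that also rose in control cells, and DCX (0.79), NOG (0.97) and DLX5 (0.55) did so among the other named genes. DNAJB1 (-0.45) was the 1 of the 20 largest falls that fell there. SFRP1 (-0.77), SOX9 (-0.65) and SLC6A2 (-0.62), which rose in the step, fell in control cells. The median of the proteasome list was -0.22 in control cells over that time, and that of the mitotic list -0.04.

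Whether a gene moved differently in this step than in the steps beside it was tested as a difference of differences in the same limma fit. The steps share the arrays at t = 8 or t = 24, and noise in those arrays moves the steps in opposite directions. Each step is therefore given beside the other. Counts of genes that turned are description only, and the part of that noise in them was not tested. From t = 0 to t = 8, 270 genes (2.1%) had changed, 142 (1.1%) upward and 128 (0.994%) downward, and the step to t = 24 differed from that step for 140 genes (1.09%), 95 (0.738%) in the upward and 45 (0.349%) in the downward direction, and for 42, 74 and 44 without t = 8 replicates 1, 2 and 3. Among the 20 largest rises, 10 moved more in this step than before t = 8, led by LUM (difference of steps 3.09, limma adjusted p = 0.00176) and DKK1 (2.71). H2AC6 (1.91), RGS4 (2.10), COL3A1 (2.29), SLITRK6 (1.64), SPOCK1 (1.46) and H2AC25 (1.60) were among the others. CHST1 (-1.85), HSPH1 (-1.19), PALM3 (-1.17) and DNAJB1 (-0.89) did so among the falls. AVPR1A had fallen from t = 0 to t = 8, from 42.7 to 24.1, before it rose to 96.4, and STAMBPL1 from 140 to 79.4 before it rose to 245; 37 genes changed in opposite directions in these 2 steps with the difference between them passing.

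From t = 24 to t = 48, 514 genes (3.99%) changed, 306 (2.38%) upward and 208 (1.61%) downward, and that step differed from the step to t = 24 for 298 genes (2.31%), 123 (0.955%) upward and 175 (1.36%) downward, and for 174, 156 and 159 without t = 24 replicates 1, 2 and 3. For 85 of them both steps passed in opposite directions, 65 up and then down and 20 down and then up. Noise in the shared t = 24 arrays adds to such counts, and its part was not tested. The 6 with the largest difference all rose and then fell. DKK1 ended at 70.3, 47.6 and 56.2 in induced cells at t = 48, below its t = 8 mean of 83.8, and MSX2 at 26.7, 30.2 and 34.2, near its t = 0 mean of 27.1. CD9, a tetraspanin of the cell surface, went from 264.8, 229.5 and 224.9 at t = 8 to 401.6, 401.7 and 375.7 at t = 24 (0.70) and to 63.1, 75.2 and 78.0 at t = 48, where control cells were at 170. LUM fell to 73.4, 51.7 and 78.4 and stayed above its t = 8 arrays of 9.7 to 14.3. HAS2 and SPRR3, an epithelial envelope protein, ended at means of 25.9 and 10.3. A dim other probe set of CD9 gave -0.13 in the step to t = 24, and SPRR3 lost its call in that step without any 1 array (adjusted p up to 0.136).

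**Figure D5:**
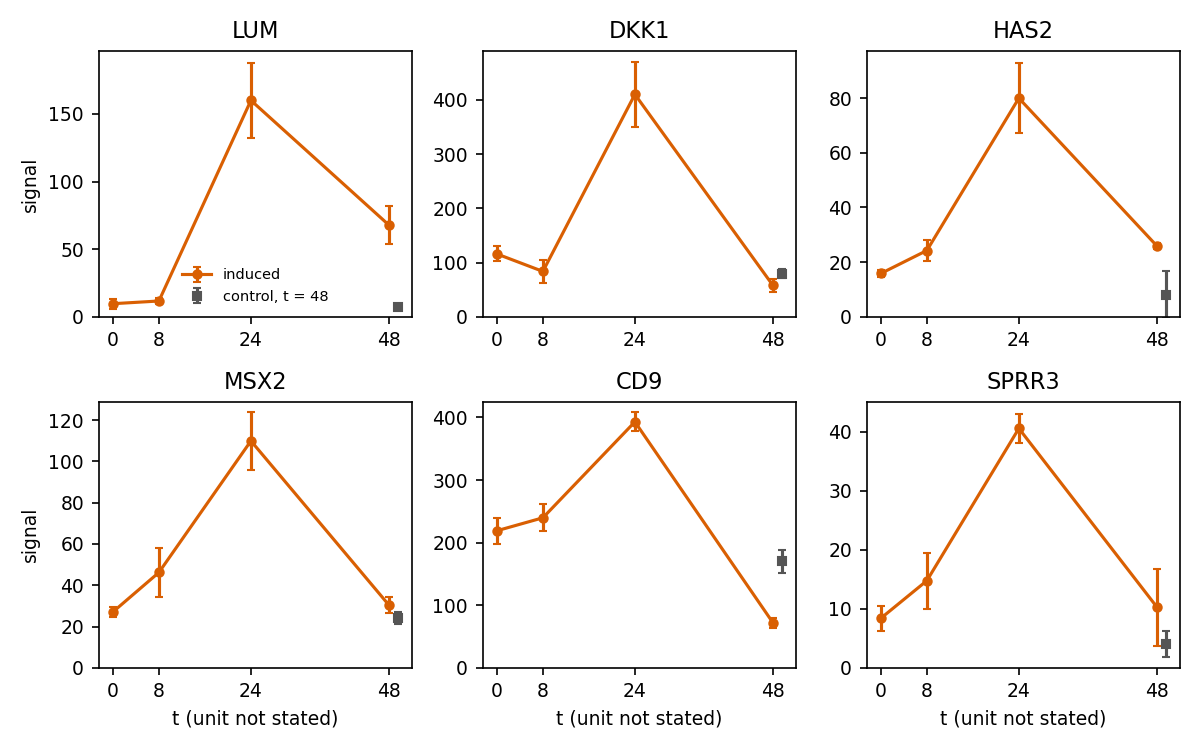
Mean signal (± SD, n = 3) of the 6 genes whose step from t = 24 to t = 48 differed most from their step from t = 8 to t = 24, in induced cells over time (orange line; t = 0 cells had no doxycycline) and in control cells at t = 48 (grey square, drawn slightly to the right). The points at t = 24 are the highest in each panel; DKK1 is at 410 there and at 58.0 at t = 48.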

How the data were processed

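Total RNA of IMR32 cells was hybridised as biotin-labelled cRNA to 15 arrays with 54675 probe sets, per the labels' protocols. The deposited values are linear intensities per probe set, for which the submitters' processing notes name MAS5 and GCOS; versions and settings are not given in the sources used here. Their trimmed mean (2% from each end) was 100.01 on every array, so a shift of total RNA per cell would not be seen. No counts underlie the values, and the number of arrays limits the precision.

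From these, log2(signal + 5.16) was taken, a probe set was kept if its signal reached the array median on at least 3 of 15 arrays, and the brightest kept probe set stood for each of 12880 genes. Of all probe sets, 41091 had 1 gene symbol and 1801 had several; the latter were left unnamed. limma 3.58.1 (R 4.3.3) fitted 5 group means (10 residual degrees of freedom), with Benjamini-Hochberg adjustment and a threshold of 0.05. The named genes are MSX1, the 20 largest rises and 20 largest falls that passed with no overlap between groups, in each list the 4 members that passed with the largest change (all of them in a list with up to 5), and the 6 genes with the largest reversal after t = 24. The members and the 51 lists were chosen with earlier results of these data known. Lists hold 1516 entries, of which 1144 were measured. The design was fitted with 13 alternatives and 1 added after seeing the data. On simulated data for this step (12880 genes, 200 changed), 87% of changes of 1 and 38% of changes of 0.5 on the log2 scale were recovered, and 4.58% of calls were false. The simulated noise was independent between genes and between arrays. It held no differences between whole arrays or in scaling, so the share of false calls in the measured data is not known from it. Promoters came from RefSeq.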

Additional observations from a re-analysis of the deposited data

Results flagged for a closer look

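Among the 85 genes that turned at t = 24 and the 37 that turned at t = 8, with the difference of the steps passing in limma, 8 are given here: the 6 with the largest difference at t = 24, and the 2 of the 20 largest rises and 20 largest falls that turned at t = 8. Against the step from t = 8 to t = 24, the step from t = 24 to t = 48 differed by -4.96 for DKK1 (SE 0.31, limma adjusted p = 7.4e-06), by -4.47 for LUM (SE 0.36, limma adjusted p = 5.12e-05) and by -3.07 for CD9 (SE 0.19, limma adjusted p = 7.4e-06). It differed by -2.97 for HAS2 (SE 0.57, limma adjusted p = 0.0159), by -2.90 for SPRR3 (SE 0.54, limma adjusted p = 0.013) and by -2.87 for MSX2 (SE 0.26, limma adjusted p = 0.000112). Against the step from t = 0 to t = 8, the step from t = 8 to t = 24 differed by 2.49 for AVPR1A (SE 0.27, limma adjusted p = 0.00117) and by 2.34 for STAMBPL1 (SE 0.16, limma adjusted p = 4.86e-05). Each pair of steps shares the 3 arrays between them, so noise in those arrays enters both steps with opposite sign.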

How the results depend on the processing

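Between t = 8 and t = 24, 808 genes passed (444 higher, 364 lower). The counts were 231 (163 and 68) with arrays centred on the median of all probe sets, 404 (241 and 163) without the filter, 89 (74 and 15) with the 6 arrays alone, 490 (283 and 207) without the arrays with weak controls and 269 (167 and 102) at an adjusted p of 0.01. Lower calls were 679 with centring on the genes tested (342 higher; chosen after seeing the data), 611 with the filter at the 75th percentile and 583 with a trend in the prior variance. Leaving out 1 array gave 398 to 567 calls, 248 to 307 higher and 150 to 260 lower. For the step against the preceding step (140), the counts were 39 with median centring, 78 without the filter, 230 at the 75th percentile, 212 with a trend, 28 with its own arrays, 31 at 0.01 and 42 to 122 with 1 array left out. For the step to t = 48 against this step (298) they were 142, 179 without the filter, 151 with its own arrays, 160 without the weak arrays, 134 at 0.01 and 156 to 302. For induced against control cells (1101) they were 566, 684, 617 with its own arrays, 441 at 0.01 and 625 to 816. For control cells over time (109) they were 31, 56, 175 at the 75th percentile, 0 with its own arrays in limma (1439 at an unadjusted p under 0.05), 41 at 0.01 and 33 to 88. Of the named genes 36 kept their call under every alternative in which they were judged. Named genes were not judged at an adjusted p of 0.01, and the filter at the 75th percentile kept 112 of 148. Of 2628 pairs of gene and alternative 1 reversed, MAML3 with its probe sets averaged (-0.045). The cause of these changes was not tested. The labels do not say whether replicate numbers pair the arrays. Between the t = 8 and t = 24 arrays of the same number, correlations of deviations from the group means were -0.0445, 0.0225 and -0.0163. Over all groups such correlations ran from -0.278 to 0.207, and they cannot show that the arrays were unpaired. With the replicate block 598 genes passed, 345 higher and 253 lower. Genes near the array medians of 18.1 to 22.6 are limited by signal over background.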

Other observations

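Histone genes, chosen as a list after their values were seen and so given without a test, were measured for 22 members. From t = 8 to t = 24, 6 of them rose, beside 3.45% over all genes: H2AC6 (2.07), H2AC25 (1.48), H2BC12 (1.20), H2BC5 (1.13), H2BC21 (1.12) and H4C8 (0.84). Their median difference was 0.31 and 15 of 22 lay above 0, while the replication genes of the same arrays had a median of -0.27. Induced against control cells at t = 48 compared none of this step's arrays but shared the estimate of spread. There 6 histone genes were higher, beside 5.26% over all genes. These were H1-2 (1.06) and all of the 6 genes above but H4C8 (0.51, limma adjusted p = 0.188). Histone genes have near-identical copies, so which copy a probe set detects is uncertain. Whether these probe sets stand for histone RNA as a whole was not tested.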
